A study of Homo sapiens with 4 samples.

Results

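The 48 genes described here carry cells through mitosis: cyclins and cyclin-dependent kinase 1 (CDK1) with their activators, the mitotic kinases, the spindle checkpoint, the chromosomal passenger complex, the kinetochore, spindle motors, the cytokinesis machinery, the regulators of anaphase, and the transcription factors and proliferation marker that go with them. They were picked by symbol among the 63677 genes of the count tables, and only rows on primary chromosomes were kept. All 48 were found, and all 48 were among the 15398 genes that passed the filter on low counts. RNA was sequenced from IMR90, normal fibroblasts of the human fetal lung, 72 h after transfection with RNAiMAX of either a non-targeting control (NTC) siRNA or siRNA against HMGB1, an abundant chromatin protein that also binds RNA. Replicate 1 of each group was the isolate I90-10 and replicate 2 the isolate I90-79, so each isolate gave 1 control and 1 knockdown library, 4 libraries in all. The methods name 2 different siRNAs for IMR90, and the labels do not say which was used in which library. The labels do not say whether the 2 isolates come from separate donors, and the study's text speaks of donors or isolates without telling them apart for these libraries, so p-values measure only the spread between these 4 libraries.

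Genes of mitosis are transcribed mainly in G2 and M phase. In resting cells and in G1 they are held down by the DREAM complex, in which the pocket protein p130 (RBL2), E2F4 and the MuvB proteins sit on their promoters, and later in the cycle MuvB teams up with B-MYB (MYBL2) and FOXM1 to switch them on. Their mRNA level in a bulk culture therefore serves widely as a readout of the share of dividing cells, and fibroblasts that enter senescence lose it.

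MuvB reaches such promoters through a short element called the CHR, whose usual letters are TTTGAA, often near CCAAT boxes. Of the 48 genes, 39 have a promoter in the RefSeq table used (GRCh38.p14, 250 bases before to 50 after the start of the gene), and 27 of these 39 (69.2%) held TTTGAA on either strand, against 15.4% of all 27305 promoters in the table and 9.89% of the 11104 that belong to genes tested here. CCAAT on either strand was found in 74.4% of the 39, against 35.7% of all promoters, and 2 or more CCAAT in 51.3%, against 11.3%. The variant TTCGAA was found in 2 of the 39. A match to TTTGAA that begins within the 40 bases before the gene's start was found in 16 of the 39 (41.0%) and in 2.10% of all promoters. Such a match may run past the start, and the limit of 40 bases was set after the positions had been seen. The windows below show the element in capitals, with 12 bases on either side, for genes that the comparison later separates: PLK1, CCNB2 and CDK1 were higher upon knockdown in I90-10 and lower in I90-79, CKS1B and MAD2L1 were higher in both isolates, and MKI67 and ASPM were lower in both. All are written 5′ to 3′ on the strand of the gene, so that TTCAAA marks an element on the other strand, and positions count from the start of the gene.
PLK1 (chr16:23678848-23678877, plus strand, element from −29): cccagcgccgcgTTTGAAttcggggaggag
CCNB2 (chr15:59105105-59105134, plus strand, element from −29): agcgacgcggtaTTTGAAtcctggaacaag
CDK1 (chr10:60778158-60778187, plus strand, element from −161): gagtataataaaTTTGAActgtgccaatgc
CKS1B (chr1:154974639-154974668, plus strand, element from −30): gcgggcggcgtgTTTGAAagcgaggccaaa
MAD2L1 (chr4:120066807-120066836, minus strand, element from 24): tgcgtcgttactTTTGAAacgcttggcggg
MKI67 (chr10:128126435-128126464, minus strand, element from −29): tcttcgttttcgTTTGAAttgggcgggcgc
ASPM (chr1:197146765-197146794, minus strand, element from −113): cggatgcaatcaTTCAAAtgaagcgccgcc
The element was present in each of these classes of genes, in 8 of 9 promoters of genes higher in both isolates, in 6 of 8 of genes lower in both, and in 13 of 22 of genes that moved in opposite directions. A match is a description of the letters and was not tested as a binding site.

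HMGB1 measured 181 and 237 CPM (the usual depth-normalised read count, scaled by the TMM method) in the control libraries of I90-10 and I90-79 and 16 and 18.9 CPM in their knockdown libraries, a log2-fold change of −3.59 (standard error, SE, 0.19 and adjusted p = 0.0075 by edgeR's quasi-likelihood test). Libraries held 29861687 to 35317010 counts, and each of the 48 genes had between 114 and 7890 counts in every library. The 10 fibroblast markers examined were all expressed, at 64.9 to 12559 CPM. The 9 matched markers of other cell types summed to between 2.69 and 7.48 CPM, with 1 of them at 0 in all libraries.

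The question put to these genes was whether proliferation dropped in both isolates. The summed level of the 48 genes did not fall in both. It went from 1718 to 2147 CPM upon knockdown in I90-10, 1.25-fold, and from 2987 to 2661 CPM in I90-79, 0.891-fold. The control mean was 2352 ± 897 CPM (SD, n = 2) and the knockdown mean 2404 ± 363 CPM (SD, n = 2), so the group means differed by far less than the spread between isolates. Both knockdown libraries lay between the 2 control libraries. An exact permutation test of 2 libraries against 2 cannot go below a two-sided p of 0.333. In a bulk culture, fewer dividing cells and less mitotic mRNA per dividing cell cannot be told apart.

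Without a term for the isolate, none of the 48 genes passed the study's limits of an adjusted p under 0.01 and an absolute log2-fold change over 0.6, against 0.0649% of all genes tested called up and 0.136% called down by edgeR. The smallest adjusted p among the 48 was 0.114, that of BUB3, and BUB3 alone had an unadjusted p under 0.05, as had 28.3% of all genes. At an adjusted p under 0.05 with no limit on the fold, which 8.44% of all genes reached, there was still none. DESeq2 without the isolate called none either, against 2.56% of all genes up and 2.88% down, with 2 of the 48 up and 1 down at an unadjusted p under 0.05, as had 7.07% and 7.44% of all genes. The median log2-fold change of the 48 was 0.04, with 26 positive and 22 negative, beside a median of −0.01 over all genes tested. The number of replicates pairs the libraries, since equal numbers are the same isolate, and when each isolate was taken as a replicate block, edgeR called MAD2L1 up and ASPM down, where 6.68% of all genes were called up and 7.84% down. DESeq2 with the block called the same 2 genes, where it called 3.45% of all genes up and 3.88% down. Without a filter on low counts, edgeR called MAD2L1 up (4.08% of all genes) and ASPM and KIF20A down (4.65%).

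Each isolate was then read alone, with its own control. In I90-10, 39 of the 48 were higher in the knockdown library, with a median log2 change of 0.42, and in I90-79, 34 were lower, with a median of −0.23. A higher level in I90-10 together with a lower one in I90-79 was seen for 25 of the 48 (52.1%), against 10.9% of all genes tested, and the reverse was seen for none, against 10.8%. Only 9 (18.8%) were lower in both isolates, against 39.4% of all genes, and 14 (29.2%) were higher in both, against 38.9%. All 48 had a higher log2 change in I90-10 than in I90-79, as had 50.9% of all genes. The genes nevertheless kept much of their order: across the 48, the log2 changes of the isolates had a Pearson correlation of 0.725, and across all genes tested 0.74, where genes of a library are not independent replicates. For 14 of the 48 the 95% counting interval, an exact Clopper-Pearson interval on the 2 libraries' counts, lay above no change in I90-10 and below it in I90-79, which 1.47% of all genes did. The reverse held for none of the 48 and for 1.44% of all genes. Such intervals cover counting error only. With 1 library for each isolate and treatment no spread is left to test whether the isolates responded differently, and that difference was not tested.

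**Figure D1:**
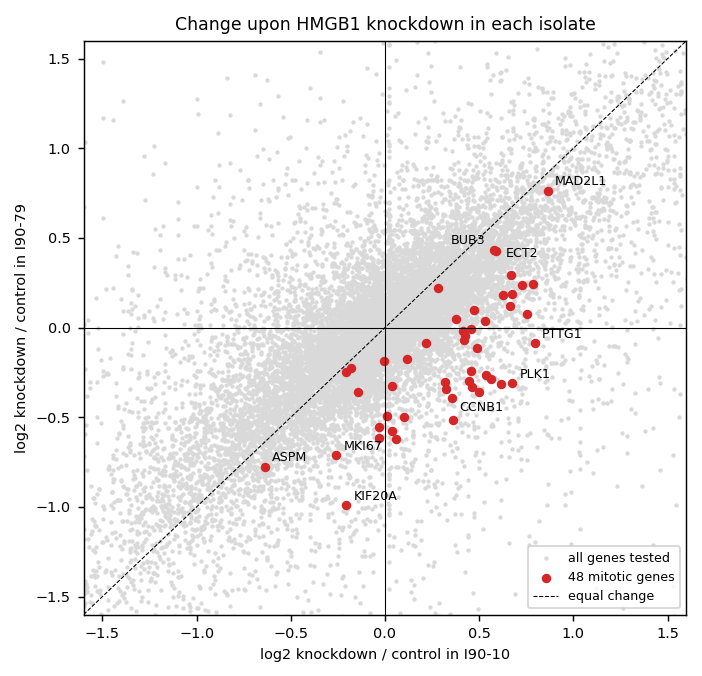
Change upon HMGB1 knockdown in isolate I90-79 (vertical axis, log2 knockdown over control) against that in isolate I90-10 (horizontal axis, same unit), with the 48 mitotic genes in red, all genes tested in grey (1039 of the 15398 lie outside the axes) and equal change as a dashed line. All 48 red points sit below the dashed line, 25 of them in the lower right part (higher in I90-10, lower in I90-79), with MAD2L1 at the upper end and ASPM and KIF20A at the lower.

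The isolates had unequal controls. Isolate and replicate number coincide, so a difference between isolates cannot be told apart from any other difference between the replicates. In the control libraries, all 48 genes were higher in I90-79 than in I90-10, against 50.1% of all genes, by a median log2 difference of 0.86, and their summed level was 1.74-fold higher. In the knockdown libraries, 44 of the 48 were higher in I90-79, against 50.3% of all genes, by a median of 0.30, and the sum was 1.24-fold higher. The control library of I90-10 was the lowest of the 4 for 39 genes and the control library of I90-79 the highest for 34. Both knockdown libraries lay between the controls for 25 genes (52.1%), against 7.92% of all genes. The 2 groups did not overlap for 6 of the 48: CKS2, TPX2, BUB3, FOXM1 and MYBL2 were higher in both knockdown libraries than in either control, against 29.8% of all genes, and KIF20A was lower, against 30.2%. The gap between the controls and the changes within each isolate rest on the same control libraries and are not independent of each other.

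**Figure D2:**
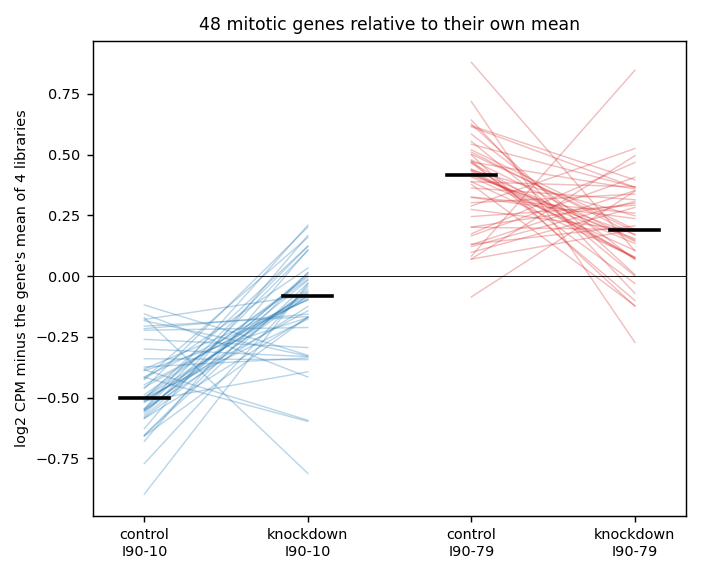
Level of each of the 48 mitotic genes (log2 CPM minus the gene's own mean over the 4 libraries, vertical axis) in the control and knockdown libraries of I90-10 (blue) and I90-79 (red), with 1 thin line per gene and isolate and black bars at the medians. The medians are lowest in the I90-10 control and highest in the I90-79 control, and those of the knockdown libraries lie between them.

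The difference between isolates, fitted over both groups with the treatment as a term, passed the limits for 6 of the 48, all higher in I90-79, against 0.442% of all genes called higher there and 1.23% lower. These were NUF2 and CENPE of the kinetochore, the centriole kinase PLK4, the checkpoint protein MAD2L1, the spindle pole protein ASPM and the cytokinesis scaffold ANLN. NUF2 had the largest isolate difference of the 48, a log2 value of 1.01 (SE 0.13, adjusted p = 0.0061 by edgeR). At an adjusted p under 0.05 with no limit on the fold, 22 of the 48 were higher in I90-79 (2.70% of all genes) and none was lower (4.08%). DESeq2 with the same terms called 13 of the 48, all higher in I90-79, where it called 0.577% of all genes higher and 1.02% lower. The summed fibroblast markers ran the other way between isolates, at 34802 and 33731 CPM in the control and knockdown libraries of I90-10 and 18862 and 21615 CPM in those of I90-79. The collagens COL1A1, COL1A2 and COL3A1 made up most of this sum, at 12559, 10228 and 7835 CPM in the control of I90-10. PDGFRA alone of the 10 was higher in the control of I90-79, at 818 against 576 CPM. The part of these markers in the result was not tested.

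Cyclins, CDK1 and their partners, 8 genes, summed to 299 and 502 CPM in the control libraries (I90-10 and then I90-79, the order kept from here on) and to 383 and 425 CPM in the knockdown libraries. CCNB1, cyclin B1, which activates CDK1 for entry into mitosis, measured 72.2 and 136 CPM in the controls and 92.4 and 104 CPM upon knockdown. It was higher in I90-10 and lower in I90-79, and its log2-fold change was −0.09 (SE 0.30, adjusted p = 0.87). CDK1 itself measured 20.2 and 39.6 CPM in the controls and 26.9 and 39.0 CPM upon knockdown, with no visible change in I90-79 and a log2-fold change of 0.14 (SE 0.36, adjusted p = 0.83). CKS2, a small subunit that docks CDK1 onto its substrates, measured 44.7 and 64.6 CPM in the controls and 70.8 and 70.3 CPM upon knockdown. Its groups did not overlap, with a log2-fold change of 0.37 (SE 0.19, adjusted p = 0.28). The related subunit CKS1B measured 17.0 and 30.6 CPM in the controls and 29.4 and 36.2 CPM upon knockdown, higher in both isolates (log2-fold change 0.46, SE 0.30, adjusted p = 0.36, and 0.030 with the replicate block). The other 4 genes of the group, CCNA2, CCNB2 and the CDK1-activating phosphatases CDC25B and CDC25C, were all higher in I90-10 and lower in I90-79.

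Among the 4 mitotic kinases and kinase activators, 3 were higher in I90-10 and lower in I90-79. PLK1, polo-like kinase 1, measured 31.5 and 61.1 CPM in the controls and 50.2 and 49.3 CPM upon knockdown. The isolates, 1.94-fold apart in the controls, were level upon knockdown, and the log2-fold change over both was 0.10 (SE 0.31, adjusted p = 0.86). TPX2, which activates Aurora A on spindle microtubules, measured 62.5 and 99.6 CPM in the controls and 99.7 and 113 CPM upon knockdown, higher in both isolates. Its log2-fold change was 0.39 (SE 0.24, adjusted p = 0.33, and 0.036 with the replicate block). AURKA, the kinase that TPX2 activates, was likewise higher in I90-10 but lower in I90-79, at 32.4 and 62.9 CPM in the controls and 44.2 and 51.2 CPM upon knockdown.

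The spindle checkpoint, which delays anaphase until every kinetochore is attached, was the 1 group of the 9 whose summed level was higher upon knockdown in both isolates, by 1.46-fold in I90-10 and 1.21-fold in I90-79. MAD2L1, the checkpoint protein that seizes CDC20, lies on chromosome 4 from 120976763 to 120988229 (hg19) and measured 23.4 and 46.1 CPM in the controls and 42.6 and 78.4 CPM upon knockdown. It was higher by a like amount in both isolates, 1.82-fold and 1.70-fold, but the control of I90-79 exceeded the knockdown of I90-10, so the groups overlapped. Its log2-fold change was 0.80 (SE 0.42, adjusted p = 0.27), and with the replicate block 0.81 (SE 0.10, adjusted p = 7.5e-04), which passed both limits. BUB3, a subunit of the same checkpoint complex on chromosome 10 from 124913793 to 124924886, measured 84.7 and 107 CPM in the controls and 127 and 145 CPM upon knockdown. Here the groups did not overlap, the log2-fold change was 0.50 (SE 0.16, adjusted p = 0.11), and with the replicate block the adjusted p was 0.0053, with a fold under the limit. The checkpoint kinases BUB1 and BUB1B were higher in I90-10, at 27.8 in the control against 37.4 CPM upon knockdown and 26.0 against 35.8 CPM, and at 0.967-fold and 0.994-fold of the control in I90-79. TTK, the kinase that starts the signal, measured 14.3 and 27.2 CPM in the controls and 14.0 and 17.7 CPM upon knockdown, lower in I90-79 and little different in I90-10.

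**Figure D3:**
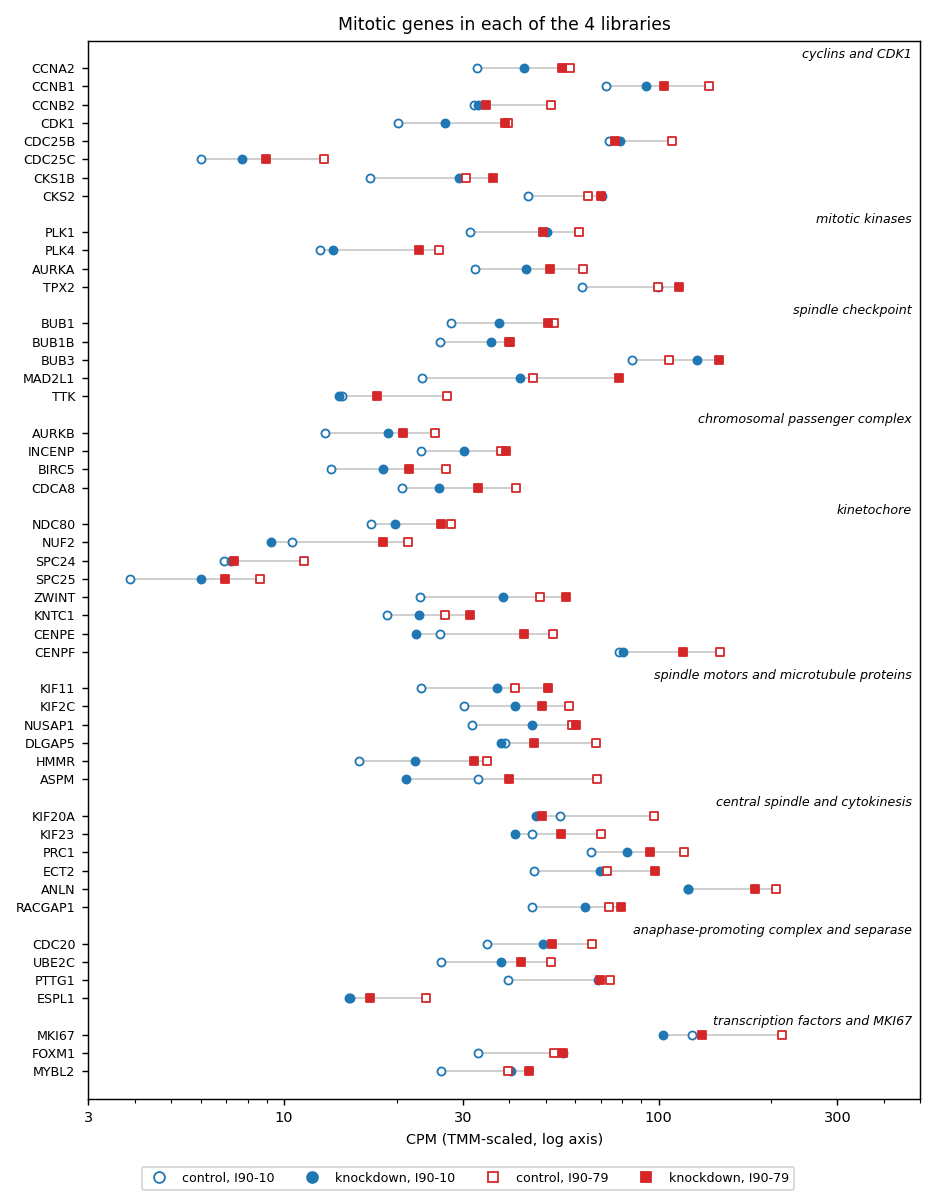
Level of the 48 mitotic genes, grouped by role, in the 4 libraries (CPM, log axis), with open symbols for controls, filled symbols for HMGB1 knockdown, blue circles for I90-10 and red squares for I90-79. The open blue circle is lowest for 39 genes and the open red square highest for 34. Both filled symbols lie below both open ones for KIF20A and above both for CKS2, TPX2, BUB3, FOXM1 and MYBL2.

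The chromosomal passenger complex, which corrects faulty attachments through Aurora B, summed to 70.1 and 132 CPM in the controls and 93.6 and 114 CPM upon knockdown. Its scaffold INCENP measured 23.3 and 37.9 CPM in the controls and 30.3 and 39.1 CPM upon knockdown (log2-fold change 0.18, SE 0.27, adjusted p = 0.70). CDCA8 (borealin) measured 20.7 and 41.8 CPM in the controls and 25.9 and 33.0 CPM upon knockdown (log2-fold change −0.09, SE 0.34, adjusted p = 0.90). INCENP was slightly higher in I90-79, whereas CDCA8, AURKB and BIRC5 were lower there, and all 4 were higher in I90-10.

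Of the 8 kinetochore genes, ZWINT and KNTC1 were higher in both isolates and NUF2 and CENPE lower in both. ZWINT, which helps hold the RZZ complex at the kinetochore, measured 23.1 and 48.2 CPM in the controls and 38.3 and 56.8 CPM upon knockdown (log2-fold change 0.41, SE 0.38, adjusted p = 0.52, and 0.028 with the replicate block). SPC24, a subunit of the microtubule-binding NDC80 complex, measured 6.91 and 11.3 CPM in the controls and 7.2 and 7.36 CPM upon knockdown (log2-fold change −0.33, SE 0.28, adjusted p = 0.49). The 4 subunits of that complex gave unequal values in I90-10, where SPC25 was 1.54-fold and NDC80 1.16-fold higher, SPC24 was level, and NUF2 was at 0.882-fold.

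Among spindle motors and microtubule proteins, KIF11 and ASPM lay at opposite ends. KIF11, the kinesin that pushes spindle poles apart, measured 23.3 and 41.3 CPM in the controls and 37 and 50.6 CPM upon knockdown, higher in both isolates (log2-fold change 0.44, SE 0.31, adjusted p = 0.40, and 0.019 with the replicate block). ASPM, which organises spindle poles, lies on chromosome 1 from 197053258 to 197115824 (hg19) and measured 33.0 and 68.4 CPM in the controls and 21.2 and 39.9 CPM upon knockdown. It was lower in each isolate, 0.641-fold and 0.584-fold, while the isolates stayed apart, so the groups overlapped. Its log2-fold change was −0.73 (SE 0.44, adjusted p = 0.33), and with the replicate block −0.71 (SE 0.10, adjusted p = 0.0016), which passed both limits.

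The cytokinesis genes split in the same way. ECT2, which activates RhoA to drive furrowing, measured 46.4 and 72.8 CPM in the controls and 69.9 and 97.7 CPM upon knockdown, higher by 1.51-fold and 1.34-fold (log2-fold change 0.49, SE 0.27, adjusted p = 0.29, and 0.0065 with the replicate block, with a fold under the limit). KIF20A, a kinesin of the central spindle on chromosome 5 from 137514408 to 137523404, measured 54.5 and 97.3 CPM in the controls and 47.2 and 49.0 CPM upon knockdown. It was the 1 gene of the 48 with both knockdown libraries under both controls, and most of the difference was in I90-79, where it was 0.503-fold of the control. Its log2-fold change was −0.66 (SE 0.28, adjusted p = 0.20), and −0.60 with the replicate block (SE 0.17, adjusted p = 0.029). KIF23, the other kinesin of the central spindle in the list, measured 45.8 and 70.4 CPM in the controls and 41.4 and 54.9 CPM upon knockdown, and ANLN was likewise not higher in either isolate.

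The anaphase regulators CDC20, UBE2C, PTTG1 and ESPL1 were all higher in I90-10 and lower in I90-79, and their sum, 116 and 216 CPM in the controls, came to 171 and 182 CPM upon knockdown. PTTG1 (securin), the inhibitor of separase, measured 39.7 and 74.2 CPM in the controls and 68.9 and 69.9 CPM upon knockdown (log2-fold change 0.28, SE 0.29, adjusted p = 0.57). It had the second highest log2 change of the 48 in I90-10, 0.79, after MAD2L1 at 0.86. ESPL1, separase itself, measured 14.9 and 24.0 CPM in the controls and 15 and 17.0 CPM upon knockdown (log2-fold change −0.28, SE 0.26, adjusted p = 0.52), level in I90-10 and lower in I90-79.

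The transcription factors and the proliferation marker pointed in different directions. MKI67, the antigen most used to score dividing cells, lies on chromosome 10 from 129894923 to 129924649 and measured 123 and 214 CPM in the controls and 103 and 131 CPM upon knockdown. It was lower in both isolates, with a log2-fold change of −0.53 (SE 0.29, adjusted p = 0.28), and −0.49 with the replicate block (SE 0.12, adjusted p = 0.018). FOXM1 measured 32.9 and 52.7 CPM in the controls and 55.6 and 55.5 CPM upon knockdown (log2-fold change 0.38, SE 0.23, adjusted p = 0.35). MYBL2 measured 26.2 and 39.7 CPM in the controls and 40.4 and 45.1 CPM upon knockdown (log2-fold change 0.38, SE 0.22, adjusted p = 0.32, and 0.045 with the replicate block). Both activators were thus above both controls in each knockdown library, while MKI67 was below the control of its own isolate.

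With the replicate block and no limit on the fold, 8 of the 48 were higher upon knockdown at an adjusted p under 0.05 (15.9% of all genes), namely CKS1B, TPX2, BUB3, MAD2L1, ZWINT, KIF11, ECT2 and MYBL2, and 3 were lower (16.3%), namely ASPM, KIF20A and MKI67. The share of genes called was thus near that of all genes for higher genes and under it for lower ones. When RUVs, a correction for unwanted variation that the study used, preceded DESeq2, none of the 48 was called up and 4 were called down, CENPE, ASPM, KIF20A and MKI67, where 2.76% of all genes were called up and 2.94% down. That correction left 14 of the 48 positive and 34 negative, and their median was −0.22 on the log2 scale. Its factor was −1.25 and 0.448 in the controls of I90-10 and I90-79 and −0.274 and 1.08 in their knockdown libraries. The factor was thus higher in the knockdown library of each isolate, so it is not independent of the treatment, and its part in these calls was not tested. The direction of the median also rested on single libraries: it was −0.35 without the control of I90-10 and 0.57 without the control of I90-79. It was 0.16 without the knockdown library of I90-10 and −0.10 without that of I90-79.

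Per length of transcript, the 48 genes spanned a wide range. CKS2 led with a mean level of 102 RPKM (CPM divided by the length of the gene in kilobases) over the 4 libraries, followed by CCNB1 at 39.5, BUB3 at 36.1, PTTG1 at 31.4 and ANLN at 26.0 RPKM, and ESPL1 was last at 1.99 RPKM. Some counts may be shared with other genes. Overlap with another annotated gene covered 26.4% of the exonic bases of BIRC5, 16.3% of those of FOXM1 and 10.2% of those of BUB1B. For BIRC5 and FOXM1 it lies on the opposite strand, and the strand setting of the counting is not given in the sources used here. Whether reads of these pairs were told apart is therefore not known. For BUB1B it lies on the same strand, where strand cannot tell reads apart. Of the 50-base pieces of CKS1B, CDC20 and BUB1B, 8.82%, 7.78% and 7.61% also occur in other counted genes.

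Further mitotic genes, 57 beyond the 48, gave a like picture. None was called by edgeR without the block, where 0.0649% of all genes were called up and 0.136% down. At an unadjusted p under 0.05, 1 was higher and 5 were lower, against 28.3% of all genes in either direction. Their median log2 change was 0.34 in I90-10 and −0.13 in I90-79. Of the 57, 26 were higher in I90-10 and lower in I90-79, against 10.9% of all genes. The 3 with the smallest p were all lower. SKA2, which ties kinetochores to microtubules, measured 34.7 and 40.2 CPM in the controls and 21.9 and 22.5 CPM upon knockdown, with no overlap of the groups (log2-fold change −0.75, SE 0.13, adjusted p = 0.036). KIF4A, a chromokinesin, measured 25.1 and 43.1 CPM in the controls and 15.5 and 16.8 CPM upon knockdown (log2-fold change −1.08, SE 0.27, adjusted p = 0.073). OIP5, which helps load the centromeric histone, measured 2.49 and 4.97 CPM in the controls and 0.519 and 1.41 CPM upon knockdown (log2-fold change −1.94, SE 0.58, adjusted p = 0.10). All 3 were called down with the replicate block, as were 7.84% of all genes. DEPDC1, named after its value was seen, was called up with it (log2-fold change 0.98, adjusted p = 0.0015), as were 6.68% of all genes.

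**Figure D4:**
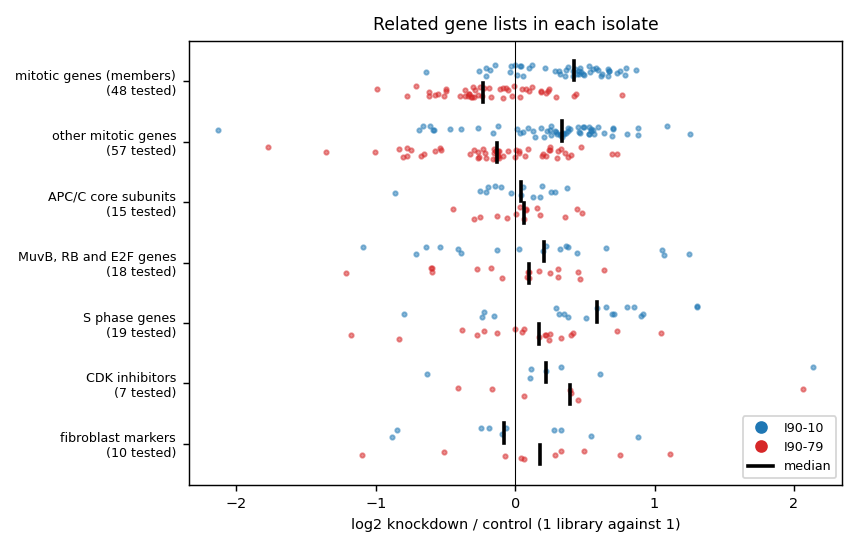
Log2 change upon HMGB1 knockdown (1 library against 1) in I90-10 (blue) and I90-79 (red) for the 48 mitotic genes and 6 related lists, 1 point per gene with small vertical scatter added, black bars at the medians. The medians have opposite signs for the 48 (0.42 and −0.23) and for the other mitotic genes (0.34 and −0.13), and are both positive for S phase genes (0.58 and 0.17).

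The 15 genes listed for the anaphase-promoting complex, its core subunits and the coactivator FZR1, are not cell cycle regulated in the way of the 48. They were near 0 in both isolates, with medians of 0.04 and 0.06. None was called without the block, against 0.0649% of all genes up and 0.136% down, or with it, against 6.68% up and 7.84% down. At an unadjusted p under 0.05 by edgeR without the block, 2 were higher and none lower, against 28.3% of all genes in either direction. CDC23 measured 44.1 and 41.1 CPM in the controls and 57.1 and 57.3 CPM upon knockdown (log2-fold change 0.43, adjusted p = 0.078), CDC27 had a log2-fold change of 0.37 (adjusted p = 0.14) and ANAPC5 one of −0.32 (adjusted p = 0.18).

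A further list held 18 genes of the MuvB, RB and E2F families, which regulate the 48. Without the block none of these was called, against 0.0649% of all genes called up and 0.136% called down. None was higher and 4 were lower at an unadjusted p under 0.05, against 28.3% of all genes in either direction. With the block LIN52, RBL2 and E2F6 were called down, as were 7.84% of all genes, E2F6 being named after its value was seen. RBL2, the pocket protein p130 of DREAM, measured 75.2 and 72.6 CPM in the controls and 48.2 and 47.8 CPM upon knockdown (log2-fold change −0.62, SE 0.11, adjusted p = 0.034). LIN52, the MuvB subunit that holds p130, measured 14.6 and 19.8 CPM in the controls and 6.79 and 8.49 CPM upon knockdown (log2-fold change −1.17, SE 0.23, adjusted p = 0.044). TFDP2, a dimer partner of E2F, was at 50.2 and 43.3 CPM in the controls and 34.6 and 28.5 CPM upon knockdown (log2-fold change −0.57, adjusted p = 0.085). These 3, picked for their small p, had groups that did not overlap, and 30.2% of all genes were lower without overlap.

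The S phase list, 19 of 20 genes matched, had medians of 0.58 in I90-10 and 0.17 in I90-79. In both isolates 12 genes were higher, against 38.9% of all genes. None was called without the block, against 0.0649% of all genes called up and 0.136% called down. At an unadjusted p under 0.05, 2 were higher and 1 was lower, against 28.3% of all genes in either direction. PCNA, the sliding clamp of replication, measured 90.1 and 121 CPM in the controls and 51.7 and 53.5 CPM upon knockdown (log2-fold change −1.01, SE 0.17, adjusted p = 0.032). GINS1 and MCM7, parts of the replicative helicase, were higher: GINS1 measured 5.65 and 8.17 CPM in the controls and 14.0 and 16.9 CPM upon knockdown (log2-fold change 1.16, SE 0.24, adjusted p = 0.049), and MCM7 57.9 and 108 CPM in the controls and 143 and 178 CPM upon knockdown (log2-fold change 0.96, SE 0.31, adjusted p = 0.12). With the block MCM7, GINS1 and TYMS, the last named after its value was seen, were called up and PCNA down. Over all genes, 6.68% were called up and 7.84% down with it.

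Of the 7 CDK inhibitors, CDKN2B (p15), which blocks CDK4 and CDK6, was upregulated. It measured 34.8 and 38.4 CPM in the controls and 153 and 161 CPM upon knockdown (log2-fold change 2.10, SE 0.12, adjusted p = 0.0075), and the knockdown libraries were far above the controls in each isolate. CDKN1A (p21) measured 1118 and 1095 CPM in the controls and 1307 and 1441 CPM upon knockdown (log2-fold change 0.31, adjusted p = 0.23). CDKN2A, which gives p16 and ARF, measured 41.5 and 32.9 CPM in the controls and 63.4 and 43.5 CPM upon knockdown (log2-fold change 0.52, adjusted p = 0.20, and 0.0083 with the block, with a fold under the limit). The other 4 had log2-fold changes of 0.29 for CDKN1B, −0.55 for CDKN1C, 0.18 for CDKN2C and −0.04 for CDKN2D, with adjusted p of 0.24 to 0.93.

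Among the markers of fibroblasts, none of 10 was called without the block, against 0.0649% of all genes called up and 0.136% called down. At an unadjusted p under 0.05, 2 were higher, against 28.3% of all genes in either direction. The 3 with the smallest p were LUM (log2-fold change 0.79, adjusted p = 0.099), PDGFRA (0.58, adjusted p = 0.14) and PDGFRB (−0.73, adjusted p = 0.28). Markers of other cell types were too low for most to be tested. Of the 4 tested none was called without the block, against the same shares of all genes. VWF, of endothelial cells, measured 1.36 and 0.923 CPM in the controls and 4.16 and 2.59 CPM upon knockdown (adjusted p = 0.068 without the block). With the block VWF was called up (adjusted p = 0.0036), as were 6.68% of all genes. Without the block MYH11 had an adjusted p of 0.31 and DES one of 0.71. The summed level of these markers was 5.92 and 2.69 CPM in the controls and 7.48 and 5.00 CPM upon knockdown, and their part in the results was not tested.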

How the data were processed

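Per the labels and the study's methods, the authors made poly(A) TruSeq libraries, mapped paired-end reads to hg19 with STAR, and deposited raw counts of unique reads per gene from featureCounts, 1 table per library, together with gene lengths. Tool versions, annotation release and strand setting are not given in the sources used here. Groups and isolates came from the sample labels. Depth was 29869338 and 35317010 counts in the controls and 29861687 and 31086475 in the knockdown libraries.

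Genes were tested with edgeR 4.0.16 (quasi-likelihood test, filterByExpr, TMM, R 4.3.3) in a model with the treatment alone, and in a second with the isolate as a replicate block. The treatment-only model was the main one, since the study's methods name no isolate term, though they apply RUVs before DESeq2. It ignores that the libraries pair by isolate, so differences between isolates enter its SE. It called 10 genes up and 21 down, where the model with the block called 1028 and 1207. Same-numbered libraries deviated together, with a correlation of 0.464 over 15398 genes. P-values were adjusted by Benjamini-Hochberg over all genes tested. Calls used an adjusted p under 0.01 and an absolute log2-fold change over 0.6, the study's limits. Levels are TMM-scaled CPM, and within-isolate changes add a prior count of 2. The scripts were run on simulated counts with known changes, from which no value is reported. DESeq2 1.42.0, RUVs with 1 factor, other size factors, other filters and left-out libraries were alternatives.

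The members and all lists were chosen with earlier results of these data known. Named genes are HMGB1, MKI67, CCNB1, CDK1, FOXM1, the 2 with the smallest p in each role, the 3 with the smallest p in each other list, and all CDK inhibitors; others are named to account for counts. Motifs were searched as letters on both strands, and a CCAAT match can share a base with a neighbouring match of the other motifs. Promoters are from RefSeq (GRCh38.p14) and gene positions from the count tables (hg19).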

Additional observations from a re-analysis of the deposited data

Results flagged for a closer look

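Over the 48 mitotic genes, the median log2 change upon knockdown was 0.42 in I90-10 and −0.23 in I90-79, with 25 genes higher in I90-10 and lower in I90-79, 14 higher in both and 9 lower in both. Of these genes, 14 were singled out because the counting interval of the change lay above 0 in I90-10 and below 0 in I90-79, as for 1.47% of all genes tested. Each isolate had 1 library per treatment, so the difference between isolates was not tested, and only counting error is covered.

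In the order I90-10 and I90-79, the log2 change was 0.35 and −0.39 for CCNB1, 0.10 and −0.50 for CDC25B and 0.36 and −0.51 for CDC25C, which together set the activity of CDK1 at entry into mitosis. Of the kinases, PLK1 had 0.67 and −0.31 and AURKA 0.45 and −0.30. Within the chromosomal passenger complex the values were 0.56 and −0.28 for AURKB, 0.46 and −0.33 for BIRC5 and 0.32 and −0.34 for CDCA8. SPC25, a subunit of the NDC80 complex of the kinetochore, had 0.62 and −0.31. The microtubule-binding proteins gave 0.46 and −0.24 for KIF2C and 0.32 and −0.30 for PRC1. The regulators of anaphase gave 0.50 and −0.36 for CDC20, 0.54 and −0.27 for UBE2C and 0.79 and −0.088 for PTTG1.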

How the results depend on the processing

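With 2 libraries per group, calls of mitotic genes depended on the isolate term, the filter on low counts and RUVs. The sign of the median changed with RUVs and with which library was left out. The cause of these shifts was not tested.

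Over all genes, 10 were called up and 21 down without the block, and the counts were 702 and 788 with DESeq2, 757 and 806 with RUVs and DESeq2, 1118 and 1275 without a filter on low counts, 1028 and 1207 with the replicate block, 945 and 1062 with DESeq2 and the replicate block (an alternative chosen after seeing the data), and 606 and 693 at an adjusted p under 0.05 with any fold. With at least 10 counts in every library, 6 were called up. Leaving out 1 library gave 0 to 305 up and 0 to 337 down. None of the 48 mitotic genes was called in the main analysis, against 0 up and 4 down with RUVs and DESeq2, 1 up (MAD2L1) and 2 down (ASPM and KIF20A) without the filter, and 1 up (MAD2L1) and 1 down (ASPM) with the replicate block in either tool. KIF20A had a log2-fold change of −1.02 without control replicate 1. The replicate block also gave 1 up and 3 down among other mitotic genes, 3 down among MuvB, RB and E2F genes, 3 up and 1 down among S phase genes, 1 up (LUM) and 2 down (PDGFRB and THY1) among fibroblast markers, and 1 up (VWF) among markers of other cell types. Over all genes tested it called 6.68% up and 7.84% down. It changed no other call printed for these lists.

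Between isolates, DESeq2 called 13 of the 48 and 158 of all genes higher in I90-79, where edgeR called 6 and 68, and 43 of all genes were called with at least 10 counts in every library. The log2-fold change of HMGB1 stayed between −3.77 and −3.38, but the limit on its adjusted p was missed without knockdown replicate 1 (0.049) or knockdown replicate 2 (0.032), where the lone knockdown library is assumed to vary like the controls.

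The median log2-fold change of the 48 ranged from −0.35 (without control replicate 1) to 0.57 (without control replicate 2). RUVs with DESeq2 turned CDK1 to −0.20, INCENP to −0.071 and PLK1 to −0.079. Leaving out 1 library turned the sign of 9 named genes, with ranges of −0.48 to 0.44 for CCNB1, −0.51 to 0.51 for CDCA8, −0.27 to 0.71 for CDK1, −0.58 to 0.11 for ESPL1, −0.13 to 0.58 for INCENP, −0.30 to 0.66 for PLK1, −0.10 to 0.81 for PTTG1, −0.64 to 0.076 for SPC24 and −0.021 to 1.04 for ZWINT. The other 12 named mitotic genes, among them MAD2L1, BUB3, ASPM, KIF20A and MKI67, kept their sign with each library left out.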
